A study of Mus musculus with 4 samples.

Results

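Sinusoidal endothelial cells of the periportal side of the liver lobule were described in premalignant mouse liver from single-cell RNA libraries. The members were chosen by measured RNA levels: a barcode was taken when it carried at least 4 UMIs (unique molecular identifiers, each standing for 1 captured RNA molecule) of the sinusoidal genes Stab2, Clec4g, Gpr182 and Oit3, no Ptprc UMI, fewer than 3 Clec4f UMIs, no UMI of Wnt2, Wnt9b or Rspo3, and at least 1 UMI of Ntn4 or Efnb2. Ptprc marks leukocytes and Clec4f marks Kupffer cells, the macrophages resident in the liver, while Wnt2, Wnt9b and Rspo3 mark the opposite, pericentral side. Of 45547 barcodes in 4 libraries, 20256 premalignant barcodes passed the quality limits (a minimum of 2000 UMIs and of 300 genes, with mitochondrial UMIs no more than 25%), 7004 of them lay in the sinusoidal gate, and 1671 were members.

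The 4 libraries, 1 per group, carry the labels Mef2d KO or WT and were made from premalignant liver or from early hepatocellular carcinoma (eHCC) with 10x Genomics 5′ gene expression chemistry. Mef2d encodes a transcription factor of the MEF2 family. The deleted stretch of Mef2d, the cells it was deleted in, the age and number of the mice and the way the livers became premalignant stand in none of the sources used here. The members came from the premalignant library labelled KO, with 456 members and a median of 4592 UMIs per member, and from the premalignant library labelled WT, with 1215 members and a median of 6048 UMIs. In eHCC the same rule found 6 barcodes in the library labelled KO and 32 in the library labelled WT, too few to describe.

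Blood enters the liver lobule by the portal vein and the hepatic artery, runs along the sinusoids and leaves by the central vein. The endothelium that lines the sinusoids is fenestrated, clears waste molecules through scavenger receptors and changes its gene expression along this path. The end near the central vein secretes Wnt ligands and R-spondin, which set the gene programme of the neighbouring hepatocytes, and the end near the portal tract is known for Notch ligands, Ephrin-B2 and Netrin-4. Position in tissue was not measured here, so the name of the members rests on their genes.

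The members carried the sinusoidal genes of the gate together with Adam23, a periportal marker that the gate did not use. These gate genes chose the members, and their levels are given as a description. Stab2, which encodes the scavenger receptor stabilin-2, stood at 976 and 917 CPM (UMIs scaled to the summed UMIs of the same barcodes) in members of the libraries labelled KO and WT, against 1375 and 1311 CPM in the pericentral-side barcodes of the same libraries. Ntn4, which encodes Netrin-4, stood at 927 and 964 CPM and Efnb2, which encodes Ephrin-B2, at 185 and 230 CPM in members of the libraries labelled KO and WT. B cell barcodes, with at least 3 UMIs of Cd79a, Cd79b and Ms4a1 together and none of the 4 sinusoidal genes, numbered 1279 and 1511 in the libraries labelled KO and WT. A UMI of Ntn4 or Efnb2 was present in 2.97% and 4.10% of them, whose median depths were 3937 and 3469 UMIs. B cells should lack these genes. Barcodes with a UMI of the 4 sinusoidal genes were left out of this group, which can lower these shares and those of Adam23 below. The shares are therefore no full measure of background. Adam23 was detected in 90.8% of KO members and 95.5% of WT members, against 75.3% and 81.5% of pericentral-side barcodes and 3.75% and 6.35% of B cell barcodes. After every barcode was thinned to 2000 UMIs these shares were 81.1% and 82.6% in members, against 56.6% and 59.9% in pericentral-side barcodes and 1.64% and 3.57% in B cell barcodes.

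At full depth, most gated barcodes carried genes of both sides. The other gated barcodes were 1189 of the pericentral side, with a UMI of Wnt2, Wnt9b or Rspo3 and none of Ntn4 or Efnb2, 308 called midzonal, with neither, and 3836 with both. In the libraries labelled KO and WT, barcodes with both were 53% and 55% of the gate, with median depths of 6500 and 8122 UMIs. After thinning to 2000 UMIs they were 19.8% and 19.0% of the gate. Midzonal barcodes rose from 4.4% and 4.4% to 17.9% and 20.8% with thinning. The side given to a barcode thus depended in part on its depth. Members with exactly 1 UMI of Ntn4 or Efnb2, just inside the limit, had Adam23 at 875 and 803 CPM in the libraries labelled KO and WT, against 436 and 608 CPM in the midzonal barcodes just outside it. Barcodes that failed the rule by exactly 1 Wnt2, Wnt9b or Rspo3 UMI had Adam23 at 952 and 946 CPM. Those that failed it by exactly 1 Ptprc UMI numbered 78 and 103, with Adam23 at 1152 and 950 CPM. The premalignant libraries shared 46 barcode sequences, and no sequence was a member in both. Scrublet marked 9 KO members (1.97%) and 22 WT members (1.81%) as doublets, and they were kept.

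Single barcodes rich in RNA of other cell types passed the rule and stood apart. In the library labelled KO, 1 member with 80496 UMIs, or 3.38% of all KO member UMIs, held 94.3% of the UMIs of a set of epithelial genes in the KO members. It carried 84 Krt19 and 48 Epcam UMIs with a sinusoidal sum of 4, the minimum. In the library labelled WT, 1 member held 90.4% of the B cell and plasma cell gene UMIs of the WT members, and another held 31.3% of their hepatocyte gene UMIs. These WT members had sinusoidal sums of 52 and 36, with 13 and 3 Stab2 UMIs, so they carried sinusoidal RNA as well. In the library labelled KO, a second member with a sinusoidal sum of 4 held 21.5% of the hepatocyte gene UMIs of the KO members and carried 17 Epcam UMIs. Summed levels of these genes are given below with all members and without these 4 barcodes. All 4 are called barcodes of other cell types below, for the genes that they were picked by.

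Against the pericentral side, members had higher RNA of Msr1, Mecom, Ltbp4, Dll4 and Efnb1 and lower RNA of Kit, Cdh13 and most other pericentral-side markers, in both libraries. UMIs were summed per library and zone, and the zones were compared with edgeR's quasi-likelihood test with the library as a block, over 2 libraries and 10900 genes without the 11 genes of the rule. Libraries were the replicates, and p-values measure only the spread between these 2. Of the genes tested, 122 were higher (1.12%) and 120 lower (1.1%) in members at an adjusted p of at most 0.05, or 2.22% in either direction. The gate sorted the same barcodes on their own RNA, so these counts describe which genes went along with the gate genes and are no independent evidence of position. The median log2 fold change over all tested genes was 0.003.

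Of the 11 periportal-side markers, which were picked as such markers, 8 rose and none fell, with a median log2 fold change of 1.41. Msr1, which encodes a macrophage scavenger receptor also found on sinusoidal endothelium, stood at 578 and 578 CPM in KO and WT members, against 48.6 and 55.2 CPM in pericentral-side barcodes (11.2-fold, adjusted p = 0.000259). Mecom, a zinc finger transcription factor of arterial endothelium, stood at 167 and 166 CPM in members, against 17.2 and 12.1 CPM (11.8-fold, adjusted p = 0.00151). Both libraries gave similar levels within each zone, and the zones did not overlap. Adam23, an adhesion protein of the ADAM family without known protease activity, stood at 1064 and 1045 CPM, against 507 and 539 CPM (2.03-fold, adjusted p = 0.00952). Ltbp4, a matrix protein that binds latent TGF-beta, stood at 1317 and 1240 CPM, against 506 and 461 CPM (2.66-fold, adjusted p = 0.00279). Efna1, Il1a and Sox17 also rose, with log2 fold changes of 1.19, 0.86 and 0.84. The 3 markers that missed the threshold were Hey1, Gja5 and Gja4. Gja4 and Gja5 encode the arterial connexins 37 and 40. Gja5 had 16.8 and 18.2 CPM in members, against 1.15 and 0 CPM, with an adjusted p of 0.0508, and Gja4 had 132 and 168 CPM in members, against 151 and 195 CPM.

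Among 21 tested Notch pathway genes, 4 rose and 2 fell, with a median log2 fold change of 0.27. Dll4, the Notch ligand of arterial and sprouting endothelium, stood at 293 and 279 CPM in KO and WT members, against 77.2 and 70.4 CPM in pericentral-side barcodes (3.90-fold, adjusted p = 0.00213). Jag1, another Notch ligand, stood at 58.7 and 58.4 CPM, against 12.6 and 11.4 CPM (4.92-fold, adjusted p = 0.00242), a call that was lost without the members that carried Adgrg6, as given further on. The Notch target genes Hes1 and Nrarp rose with log2 fold changes of 0.87 and 1.57. Lfng, a glycosyltransferase that modifies Notch receptors, fell to 23.1 and 14.2 CPM in members, against 91.0 and 80.7 CPM (log2 fold change -2.29, adjusted p = 0.00333). The ligand Dll1 fell as well, with a log2 fold change of -0.82.

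Bases before the starts of the ligand genes Dll4 and Jag1 are shown because both rose in members, as RefSeq gives them in GRCm38.p6, from windows of 250 bases before the start. Dll4 lies on the plus strand of chromosome 2, and the bases cover chr2:119325534-119325783. Jag1 lies on the minus strand of chromosome 2, and the bases cover chr2:137116645-137116770, the 126 bases of its window that lie outside the gene as GENCODE places it. Capitals mark a match to any of 4 short motifs searched on both strands: TGGGAA (RBPJ, the DNA-binding partner of Notch), CCGGAA (ETS factors), ACAATG (SOX factors) and TATTTATA (MEF2).
Dll4: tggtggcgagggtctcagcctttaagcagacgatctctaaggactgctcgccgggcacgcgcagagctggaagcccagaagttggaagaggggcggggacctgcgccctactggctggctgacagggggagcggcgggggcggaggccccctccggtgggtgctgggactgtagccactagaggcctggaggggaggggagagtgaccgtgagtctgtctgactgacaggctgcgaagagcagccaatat
Jag1: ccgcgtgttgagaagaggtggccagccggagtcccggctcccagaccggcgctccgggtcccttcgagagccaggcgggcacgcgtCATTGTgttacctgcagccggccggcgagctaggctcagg
The Dll4 window held none of these letters, and the whole Jag1 window held 1 match, to the SOX letters on the opposite strand. Of the 122 genes higher in members, 88 had a promoter in the table, and the RBPJ letters were in 29.5% of these, the ETS letters in 13.6%, the SOX letters in 10.2% and the MEF2 letters in 2.27%. Over all 27025 genes of the table the same letters were in 24.1%, 13.6%, 12.2% and 1.86%, and over the 8510 tested genes with a promoter in 23.7%, 26.7%, 7.26% and 1.05%. Among the 90 genes lower in members with a promoter, the RBPJ letters were in 32.2%.

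The ephrin ligand gene Efnb1 stood at 632 and 691 CPM in KO and WT members, against 160 and 131 CPM in pericentral-side barcodes (4.57-fold, adjusted p = 0.00425). Of 21 tested genes of the ephrin, netrin and semaphorin families, Efnb1 and Efna1 rose and Sema3d, a secreted semaphorin, fell, with a median log2 fold change of 0.04 over the 21. Sema3d had 20.6 and 5.13 CPM in members, against 62.3 and 29.6 CPM (log2 fold change -2.04, adjusted p = 0.0151).

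Among secreted growth and vascular factors, 5 of 16 angiocrine genes rose and none fell. They were Kitl (stem cell factor, the ligand of Kit), Ctgf, Angpt2, Dll4 and Igfbp5. Kitl stood at 227 and 175 CPM in KO and WT members, against 97.5 and 91.3 CPM in pericentral-side barcodes (2.12-fold, adjusted p = 0.0299). Vegfc, the growth factor of lymphatic vessels, stood at 44.0 and 80.0 CPM in members, against 0.765 and 1.51 CPM (log2 fold change 5.72, adjusted p = 0.000259). Esm1, a secreted proteoglycan of activated endothelium, stood at 109 and 163 CPM, against 4.21 and 8.42 CPM (log2 fold change 4.42, adjusted p = 0.000259). Midzonal levels of Esm1 and Igfbp5, which did not pass against that side, are given further on.

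Some genes of continuous vessels and arteries rose and others fell. Of 18 tested genes of capillary and other vascular endothelium, 5 rose (Cd34, Lama4, Ly6a, Ly6c1 and Ednrb) and Cd9 and Plvap fell, with a median log2 fold change of 0.06. Plvap, which forms the diaphragms of fenestrae, had 152 and 151 CPM in KO and WT members, against 243 and 246 CPM in pericentral-side barcodes (log2 fold change -0.69, adjusted p = 0.0351). Of 11 tested genes of arterial and portal vein endothelium, 5 rose (Adgrg6, Cd34, Ly6a, Ackr1 and Sox17) and Selp fell. Cd34, a surface sialomucin of continuous capillaries, stood at 55.8 and 80.6 CPM in KO and WT members, against 3.06 and 10.6 CPM in pericentral-side barcodes (log2 fold change 3.26, adjusted p = 0.00213). Adgrg6, an adhesion G protein-coupled receptor, stood at 110 and 119 CPM, against 0.765 and 0.863 CPM (log2 fold change 7.07, adjusted p = 0.000259). Slc45a4, a membrane transporter, stood at 74.7 and 84.8 CPM, against 1.91 and 1.29 CPM (log2 fold change 5.70, adjusted p = 0.000259). Sdc1, which encodes syndecan-1, and Ly6c1 also lay among the 12 highest, with log2 fold changes of 5.01 and 5.59, and the call of Sdc1 was lost without the members that carried Adgrg6. Igfbp5, Cmklr1, Nrg1 and Lmo7 were among them at no more than 62.1 CPM in members and under 1 CPM in pericentral-side barcodes. Npr3, with 16 and 117 UMIs in KO and WT members, had no UMI in pericentral-side barcodes. Its UMIs came from only 2 KO and 13 WT members, with 62.5% of the KO UMIs in 1 barcode. Igfbp5 UMIs came from 11 KO and 36 WT members, with 45.5% of the KO UMIs in 1 barcode. Of the KO member UMIs of Dmbt1, an epithelial gene also among the 12, 99.1% came from the single epithelial barcode. Without the 4 barcodes of other cell types Dmbt1 had 2.19 and 0.120 CPM in KO and WT members, against 3.44 and 0 CPM in pericentral-side barcodes.

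Of the 9 pericentral-side markers, 8 fell in members and none rose, with a median log2 fold change of -1.75. Kit, the receptor of stem cell factor, had 125 and 82.4 CPM in KO and WT members, against 702 and 528 CPM in pericentral-side barcodes (log2 fold change -2.58, adjusted p = 0.00272). Cdh13, a cadherin without a transmembrane domain, had 28.5 and 25.8 CPM, against 252 and 220 CPM (log2 fold change -3.11, adjusted p = 0.000259). Thbd, which encodes the anticoagulant thrombomodulin, had 68.8 and 63.4 CPM, against 242 and 206 CPM (log2 fold change -1.75, adjusted p = 0.00354). Lhx6 showed the lowest value of this list, with a log2 fold change of -5.01, and Fabp4 and Plxnc1 the mildest of those that fell, with -0.94 and -0.73. The ligand gene Kitl was thus higher and its receptor gene Kit lower in members than in pericentral-side barcodes.

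Further genes that fell in members included Plppr5, Ltc4s, Rab3b, Lfng, Cgnl1, Dkk3, Jup, Lgals1 and Cdk18, with log2 fold changes between -3.57 and -1.98. Ltc4s encodes leukotriene C4 synthase and had 20.6 and 17.8 CPM in KO and WT members, against 130 and 83.1 CPM in pericentral-side barcodes (adjusted p = 0.00131). Lgals1, which encodes galectin-1, had 182 and 154 CPM in members, against 628 and 749 CPM (adjusted p = 0.00213). Among 16 chemokine and cytokine genes, the atypical chemokine receptors moved apart. Ackr3 had 1.26 and 1.31 CPM in members, against 26.0 and 30.7 CPM (log2 fold change -4.47, adjusted p = 0.00151). Ackr4 and Ackr2 fell as well, with log2 fold changes of -1.98 and -1.06, while Ackr1 rose by a log2 fold change of 1.33.

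Of 35 tested endothelial transcription factor genes, Mecom, Sox17, Sox18 and Meis1 rose and none fell. Meis1, a homeobox factor, stood at 126 and 111 CPM in KO and WT members, against 55.4 and 44.5 CPM in pericentral-side barcodes (log2 fold change 1.26, adjusted p = 0.00333). Of 29 scavenger and endocytic genes, Msr1 and Cd36 rose and none fell. Cd36, a fatty acid receptor, stood at 778 and 892 CPM in members, against 311 and 466 CPM (log2 fold change 1.14, adjusted p = 0.0120). Among 18 genes of shear response and vascular tone, Ednrb rose while Ptgs1, which encodes cyclooxygenase-1, and Ramp3 fell.

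**Figure D1:**
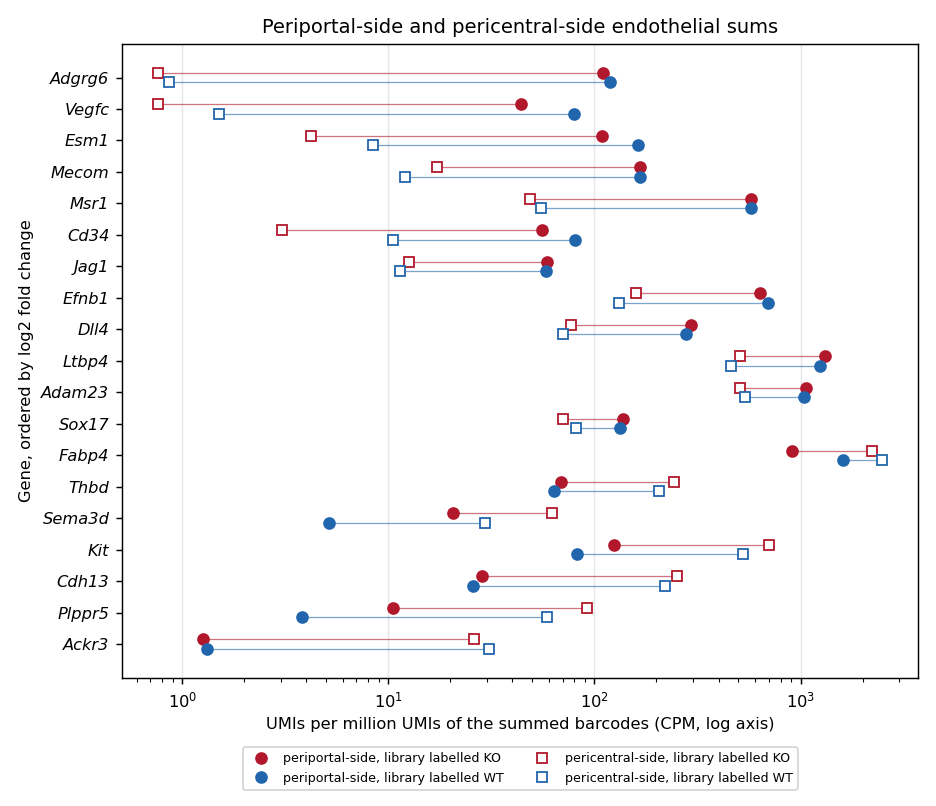
Level of 19 genes in CPM (log axis) in the summed periportal-side barcodes (filled circles) and pericentral-side barcodes (open squares) of the libraries labelled KO (red) and WT (blue), ordered by log2 fold change. Genes from Adgrg6 at the top, with 110 and 119 CPM in members against 0.765 and 0.863 CPM, to Sox17 were higher in members of both libraries, and genes from Fabp4 to Ackr3 were lower.

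The general sinusoidal programme did not separate the zones at the threshold. None of 18 sinusoidal identity genes passed it with edgeR, while 4 had an unadjusted p under 0.05 and DESeq2 called 3. Lyve1, a hyaluronan receptor, had 550 and 587 CPM in KO and WT members, against 493 and 492 CPM in pericentral-side barcodes. Mrc1, the mannose receptor, had 1914 and 1576 CPM in members, against 2179 and 1809 CPM. Of 38 interferon response genes, 37 had a log2 fold change above 0, with a median of 0.30, and none passed the threshold with edgeR or DESeq2, while 7 had an unadjusted p under 0.05. Their median stayed between 0.25 and 0.30 in all 15 fits. Lists of RNA from other cells went different ways. The Kupffer cell, B cell and T and NK cell lists had medians of -0.17, -0.15 and -0.185, with no gene called. All 23 hepatocyte genes lay above 0, with a median log2 fold change of 0.94, none called by edgeR or DESeq2 and 1 with an unadjusted p under 0.05. Their median was 0.19 after thinning (15 of 21 above 0), 0.22 with at most 10% mitochondrial UMIs and 0.24 with a sinusoidal sum of at least 0.2% of UMIs (18 of 23 above 0 in both). Their summed level was 1189 and 2757 CPM in KO and WT members, or 995 and 2063 CPM without the 4 barcodes of other cell types, against 1059 and 1193 CPM in pericentral-side barcodes. All 5 erythroid genes lay above 0 as well, with a median log2 fold change of 0.90. Their summed level was 2484 and 4971 CPM in KO and WT members, against 1375 and 2750 CPM in pericentral-side barcodes, and their median was 0.04 after thinning and 0.21 without members with Adgrg6. The part of this RNA in the zone differences was not tested.

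The midzonal barcodes were few and held more hepatocyte RNA, and 64 genes were higher (0.587%) and 65 lower (0.596%) in members than in them, or 1.18% in either direction. The summed hepatocyte genes stood at 1189 and 2757 CPM in KO and WT members, against 45788 and 15443 CPM in midzonal barcodes, and the 6 lowest genes named by the rule were all plasma protein genes of hepatocytes (Apoa1, Ahsg, Pzp, Serpina1a, Serpina1b and Apob). With a sinusoidal sum of at least 8, KO midzonal barcodes went from 97 to 87 and their UMIs from 578214 to 375478. Of the 65 lower genes, 17 were called again after thinning. A sum of at least 8 kept 22, and a sum of at least 0.2% of UMIs kept 24. Of the 64 higher genes, the same fits called 52, 64 and 64 again. Without doublets, 14 higher and 11 lower genes were called again. The part of this RNA in the comparison was not tested. The genes higher in members than in midzonal barcodes numbered 42 among the 122 higher than on the pericentral side. They included Msr1, Dll4, Jag1, Ltbp4, Adam23, Efnb1, Mecom, Adgrg6, Vegfc and Slc45a4. Of the 12 highest genes against the pericentral side, only Adgrg6, Vegfc, Slc45a4 and Ly6c1 also passed here. Esm1 stood at 43.2 and 112 CPM in KO and WT midzonal barcodes (log2 fold change 0.76 in members, adjusted p = 0.0908). Igfbp5 stood at 31.1 and 47.1 CPM there, against 23.1 and 62.1 CPM in members. Sdc1 stood at 34.6 and 5.35 CPM there, against 28.5 and 42.45 CPM in members. Msr1 stood at 119 and 165 CPM in midzonal barcodes of the libraries labelled KO and WT, between its pericentral-side level and the 578 CPM of members, and differed from members by a log2 fold change of 1.95 (adjusted p = 0.00330). Kit likewise lay between, at 227 and 298 CPM in midzonal barcodes (log2 fold change -1.47 in members, adjusted p = 0.0370). Vwf and Nuak1 led the other genes higher than in midzonal barcodes, at 17.6 and 26.4 CPM and at 22.7 and 20.3 CPM in members.

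Members themselves formed a gradient along the number of Ntn4 and Efnb2 UMIs. The counts of Ntn4 and Efnb2 that order them chose the members too, and depth was higher where the count was, so this is a description without a test. The median depth was 3705 and 4118 UMIs in members with 1 such UMI and 5110 and 6850 UMIs in those with 4 or more, in the libraries labelled KO and WT. Msr1 stood at 276 and 266 CPM with 1 UMI, at 414 and 412 CPM with 2, at 417 and 488 CPM with 3 and at 697 and 645 CPM with 4 or more, in the libraries labelled KO and WT. Kit stood at 253 and 207 CPM with 1 UMI, at 180 and 159 CPM with 2, at 163 and 118 CPM with 3 and at 81.2 and 54.8 CPM with 4 or more. Msr1 and Kit thus ran in opposite directions in both libraries. Mecom was highest with 4 or more UMIs, at 214 and 197 CPM, and lay between 49.6 and 109 CPM in the other groups. Adam23 stood at 875 and 803 CPM with 1 UMI and at 1056 to 1114 CPM in the groups above that. Members that carried Efnb2 without Ntn4 numbered 18 and 63, and had Adam23 at 730 and 667 CPM, below the 1096 and 1098 CPM of members with Ntn4 alone.

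**Figure D2:**
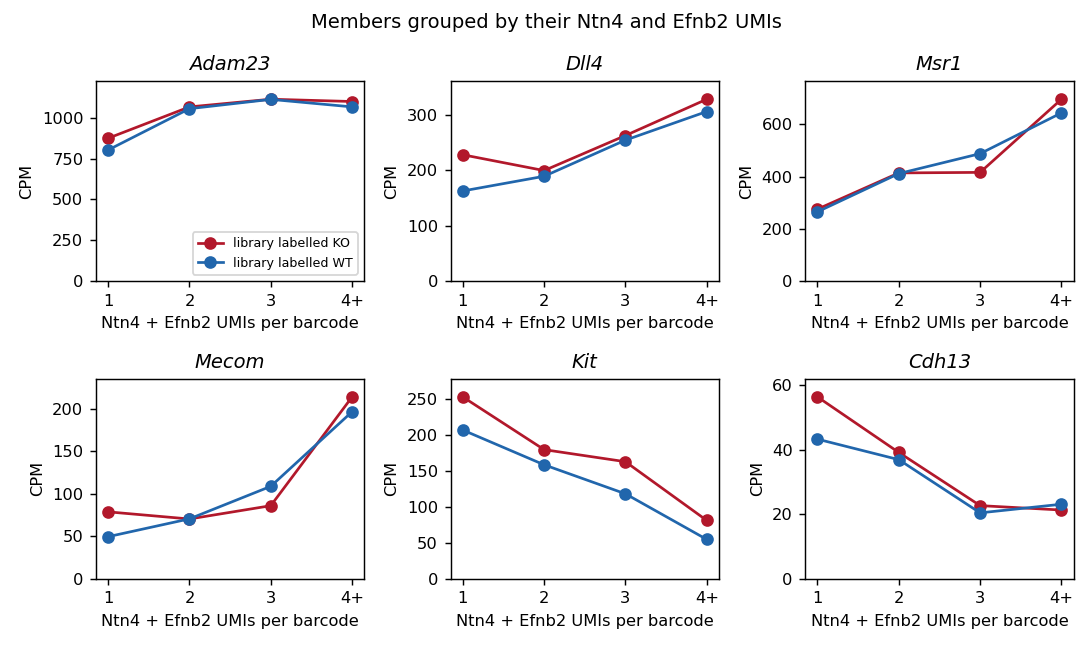
CPM of 6 genes (vertical axes, from 0) in members with 1, 2, 3 or 4 and more UMIs of Ntn4 and Efnb2 together (horizontal axes), for the libraries labelled KO (red) and WT (blue). Msr1 reached 697 and 645 CPM in the last group, Kit was down to 81.2 and 54.8 CPM there, and the 2 libraries follow similar lines.

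Members with an Adgrg6 UMI held most of the UMIs of several arterial genes. An Adgrg6 UMI was present in 73 KO members (16.0%, 95% Clopper-Pearson interval 12.8 to 19.7) and 226 WT members (18.6%, 16.4 to 20.9). The split was made after Adgrg6 was seen among the highest genes, and its values are a description. Gja5 stood at 81.6 and 70.8 CPM in members with Adgrg6 of the libraries labelled KO and WT, against 0.525 and 1.26 CPM in members without. Vwf, which encodes von Willebrand factor, stood at 81.6 and 97.7 CPM with Adgrg6, against 1.57 and 3.31 CPM without. Jag1 stood at 188 and 169 CPM, against 26.2 and 22.7 CPM, and Vegfc at 157 and 245 CPM, against 15.7 and 26.7 CPM.

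The sinusoidal genes were lower in these barcodes and still present. Stab2 stood at 270 and 444 CPM in members with Adgrg6, against 1153 and 1070 CPM in members without, and Lyve1 at 222 and 380 CPM, against 632 and 653 CPM. Kit stood at 6.28 and 16.6 CPM, against 155 and 104 CPM. Dll4 was closer, at 402 and 362 CPM with Adgrg6, against 266 and 253 CPM without, and Ltbp4 differed little, at 1396 and 1343 CPM, against 1297 and 1207 CPM. Adam23, the periportal marker given with the members that the gate did not use, was lower with Adgrg6. It stood at 785 and 838 CPM, against 1135 and 1112 CPM without, while Msr1, Mecom and Sox17 were higher with Adgrg6. The median depth was 4845 and 7249 UMIs in members with Adgrg6, against 4536 and 5738 UMIs in members without, and the part of depth or of doublets in these values was not tested.

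Left without these members, the contrast with the pericentral side kept 148 of its 242 genes. Msr1, Mecom, Dll4, Ltbp4, Adam23, Efnb1, Vegfc, Slc45a4, Cd34 and Esm1 still passed, with log2 fold changes of 3.38, 3.14, 1.82, 1.38, 1.11, 1.68, 4.17, 4.50, 3.09 and 4.45. Jag1 then had a log2 fold change of 1.03 (adjusted p = 0.0930) and Igfbp5 of 3.93 (adjusted p = 0.0889). Egr1 and Fosb, immediate early genes that rose in the whole set, had adjusted p-values of 0.449 and 0.560. Ednrb, the endothelin B receptor, had a log2 fold change of -0.22 without those with Adgrg6 (adjusted p = 0.945) and of 1.83 with all members. Sdc1 had a log2 fold change of 2.57 (adjusted p = 0.255), and Sox18, Ackr2 and Plxnc1 had 0.58, -0.81 and -0.50, with adjusted p-values of 0.0644, 0.0985 and 0.15. Npr3, Cmklr1, Nrg1, Lmo7 and Dmbt1 were too low to be tested without them. The arterial and portal vein list had a median of -0.43 without them, over the 9 genes still tested, and of 0.84 with all members, over 11. Adgrg6 belongs to this list and drops out by the split itself. The medians thus cover different genes, and part of their difference was fixed in advance.

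**Figure D3:**
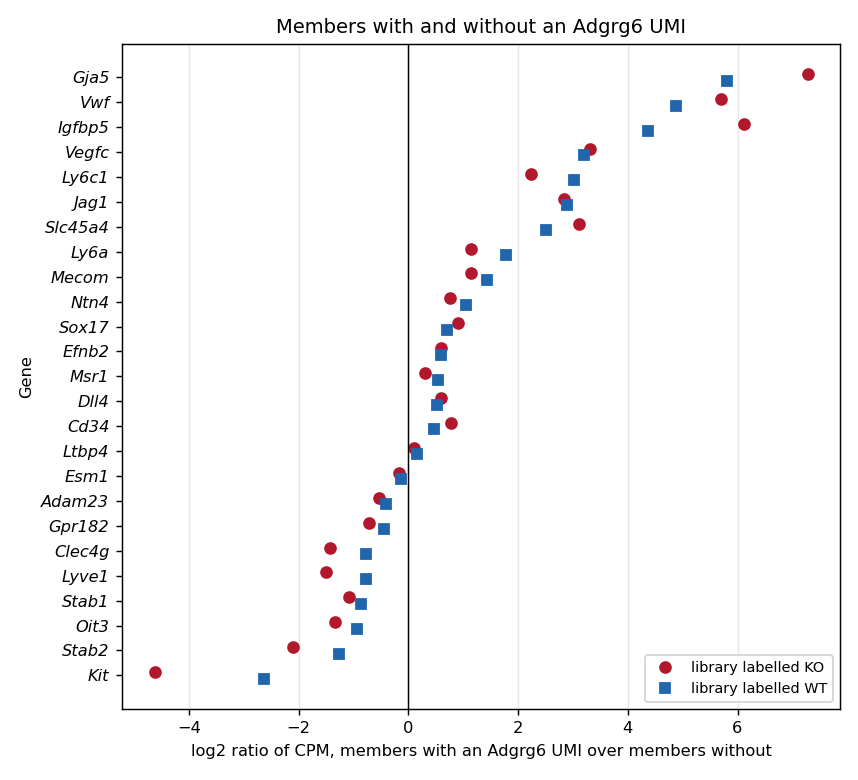
The log2 ratio of CPM in members with an Adgrg6 UMI over members without one (horizontal axis) for 25 genes, in the libraries labelled KO (red circles) and WT (blue squares). Gja5, Vwf and Igfbp5 lie farthest to the right, Kit and Stab2 farthest to the left, and the 2 libraries place each gene on the same side of 0.

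Between the genotype labels, the members made up a smaller share of the gated endothelium in the library labelled KO. They were 20.9% of the gated barcodes in the library labelled KO (95% Clopper-Pearson interval 19.2 to 22.7), against 25.2% in the library labelled WT (24.0 to 26.4). After thinning to 2000 UMIs the shares were 27.6% and 32.6%. Pericentral-side barcodes were 21.3% of the gate in the library labelled KO and 15.0% in the library labelled WT. Of all barcodes that passed the limits, members were 5.71% in the library labelled KO and 9.90% in the library labelled WT. The 78 KO and 103 WT barcodes that failed the rule by 1 Ptprc UMI are not counted as members in these shares. There was 1 library per label, so no test between the labels was possible, and these intervals and those below cover counting error only.

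Mef2d itself was not lower in the members of the library labelled KO. It stood at 84.3 CPM in KO members (95% exact Poisson interval 73.1 to 96.8) and 81.2 CPM in WT members (75.2 to 87.5), and at 81.4 CPM in KO pericentral-side barcodes, against 56.8 CPM in WT ones. The gene lies at chr3:88142372-88172086 on the plus strand of mm10, and reads from outside a deleted stretch would still be counted, so this value neither bears out nor contradicts the label KO. Of the 8 genes of the MEF2 list (MEF2 factors and their class IIa histone deacetylase partners), 6 had at least 20 UMIs, and all 6 had a log2 ratio above 0, with a median of 0.19 and none past 1.5-fold.

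The periportal-side markers of members were nearly the same under both labels, and 8 of the 9 pericentral-side markers had a log2 ratio above 0. The median log2 ratio, library labelled KO over library labelled WT, was 0.007 for the 11 periportal-side markers, against 0.031 for all 11333 genes with at least 20 UMIs, of which 7.34% were at least 1.5-fold higher and 6.62% at least 1.5-fold lower in the library labelled KO. Adam23, Dll4, Ltbp4, Msr1, Mecom and Sox17 had log2 ratios within 0.09 of 0. Hey1 was the 1 marker past 1.5-fold, at 5.45 CPM in KO members against 11.1 CPM in WT members. The pericentral-side markers had a median of 0.23. Kit stood at 125 CPM in KO members, against 82.4 CPM in WT members (log2 ratio 0.60), and Dkk3, a secreted protein of the Dickkopf family, at 18.5 CPM, against 8.23 CPM (log2 ratio 1.17). Fabp4, a fatty acid binding protein, went the other way, at 910 CPM in KO members and 1611 CPM in WT members.

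Across all genes with at least 50 UMIs in members, 4.23% were at least 1.5-fold higher and 4.28% at least 1.5-fold lower in the library labelled KO. The highest genes by the size rule were Olfm4, Dmbt1, Spink4, Smpd3, Elf3, Gpx2, Cldn2, Slc4a4, Krt19, Klf5, Wfdc2 and Meg3, led by epithelial genes that the single KO barcode described above held. Without the barcodes of other cell types these 12 genes had between 0 and 2.19 CPM in KO members. The lowest were Ubd, Apoa2, Itih4, Mup3, Gm26802, Cyp2e1, Cyp2c29, Nrgn, Orm1, Serpina3k, Cnmd and Cdk5rap1, several of them hepatocyte genes. The summed level of 23 hepatocyte genes was 1189 CPM in KO members and 2757 CPM in WT members, and 19 of them were past 1.5-fold lower. Without the barcodes of other cell types the sums were 995 CPM in KO members and 2063 CPM in WT members. The median log2 ratio of these genes was -1.68, but -0.38 after thinning (6 of 21 above 0), -0.56 with at most 10% mitochondrial UMIs (7 of 23 above 0) and -0.81 with barcodes weighted equally or with a sinusoidal sum of at least 0.2% of UMIs. Other marker lists moved too. Of 12 Kupffer cell genes 1 lay above 0, with a median log2 ratio of -3.115, or of -1.21 with 3 UMIs put in place of counts of 0. The summed level of the whole list was 258 CPM in KO members and 354 CPM in WT members, of which Fcer1g, a signalling chain of immune receptors, gave 209 CPM in KO members and 203 CPM in WT members. The other 12 genes summed to 49.1 CPM in KO members and 151 CPM in WT members, and Marco, Folr2 and Adgre1 were at 0 in KO members. All 8 T and NK cell genes lay above 0, with 114 CPM in KO members and 70.5 CPM in WT members. All 5 erythroid genes lay below 0, with 2484 CPM in KO members and 4971 CPM in WT members, while 4 of 5 lay above 0 after thinning. The B cell genes stood at 257 CPM in KO members and 1347 CPM in WT members. Without the barcodes of other cell types they stood at 262 CPM in KO members and 159 CPM in WT members, the opposite order. The part of this RNA in the label differences was not tested.

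A second ranking took genes with at most 10% of their UMIs in 1 barcode of either library, chosen after these barcodes were seen. Sema3d led the higher genes, with 20.6 CPM in KO members and 5.13 CPM in WT members, a log2 ratio of 2.0 (95% exact conditional binomial interval 1.38 to 2.63). It was also higher in pericentral-side barcodes of the library labelled KO, at 62.3 CPM against 29.6 CPM. Lrmda, Skp2, Plppr5, Ifitm10, Dkk3, Trim11, Col4a3 and Gramd1c had log2 ratios between 0.98 and 1.67, and the noncoding genes Gm42418 and Gm26917 had 0.64 and 0.70.

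Fabp4 led the lower genes of this ranking. It had a log2 ratio of -0.82 in members (95% interval -0.89 to -0.76) and of -0.17 in pericentral-side barcodes. Fabp5 had 444 CPM in KO members and 739 CPM in WT members (log2 ratio -0.73). Vegfc had 44.0 CPM in KO members, against 80.0 CPM in WT members (log2 ratio -0.86). Apoe, an apolipoprotein, had 4403 CPM in KO members, against 6377 CPM in WT members (log2 ratio -0.53), and 2941 CPM in KO pericentral-side barcodes, against 4072 CPM in WT ones. Igfbp7, a secreted vascular matrix protein, had 2807 CPM, against 4059 CPM (log2 ratio -0.53). Hspb1, Tifa, Ube2m, Ly6a, Smim8, Gm11713 and Gm12840 completed the list, with log2 ratios between -1.50 and -0.63.

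Of the gene lists for endothelial functions, 5 had medians at least 0.2 from that of all genes, the size set for calling a list shifted. The arterial and portal vein list was not counted among them. It lay at -0.27 relative to all genes, also past the size set, with 4 of 12 genes above 0. The interferon response list lay below, with a median log2 ratio of -0.20 and 6 of 39 genes above 0, and 6 of its genes were past 1.5-fold lower and none past 1.5-fold higher. Its median lay less than 0.2 from that of all genes in 5 of 13 alternatives, the nearest at -0.17. Isg15, a ubiquitin-like protein induced by interferon, had 95.2 CPM in KO members and 133 CPM in WT members. Irf7, an interferon regulatory factor, had 31.5 CPM in KO members and 48.2 CPM in WT members. The chemokine list had a median of -0.27, with 4 of 15 above 0. Relative to all genes it lay at -0.31, but at -0.02 after thinning (7 of 14 above 0), at -0.16 without members with Adgrg6 and at -0.20 with barcodes weighted equally, each short of the size set. KO members were shallower than WT members, as given above. Cxcl9 had 177 CPM in KO members and 242 CPM in WT members, and Ackr1 had 47.8 CPM, against 72.0 CPM.

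The immediate early list had a median of -0.19, with 7 of 20 above 0. The size of this shift depended on the members and the weighting. Its median was between -0.59 and -0.51 after thinning, without the top barcode of each gene, with a sinusoidal sum of at least 8 or of at least 0.2% of UMIs, or without members with Adgrg6, and -0.34 with barcodes weighted equally. Relative to all genes it lay at -0.15 with at least 2 Ntn4 and Efnb2 UMIs and at -0.19 without Clec4f, short of the size set. Jun had 561 CPM in KO members and 798 CPM in WT members, and Fos had 378 CPM, against 564 CPM. Atf3 and Nr4a1 lay on the other side, at 46.6 and 30.6 CPM in KO members, against 24.4 and 16.1 CPM in WT members. The MHC class II list had a median of 0.38, but it dropped to within 0.04 of all genes without the barcode of each library that held the most UMIs of each gene, and it lay at -0.32 relative to all genes after thinning. The fifth list was that of the pericentral-side markers. The same ratios in pericentral-side barcodes had medians of -0.10 for the interferon list, -0.18 for chemokines, 0.03 for immediate early genes and 0.19 for pericentral-side markers, and their difference from members was not tested. The 12 ribosomal protein genes had a median of -0.22 in members and of -0.35 in pericentral-side barcodes, with none above 0. In members they lay at -0.25 relative to all genes, also past the size set.

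**Figure D4:**
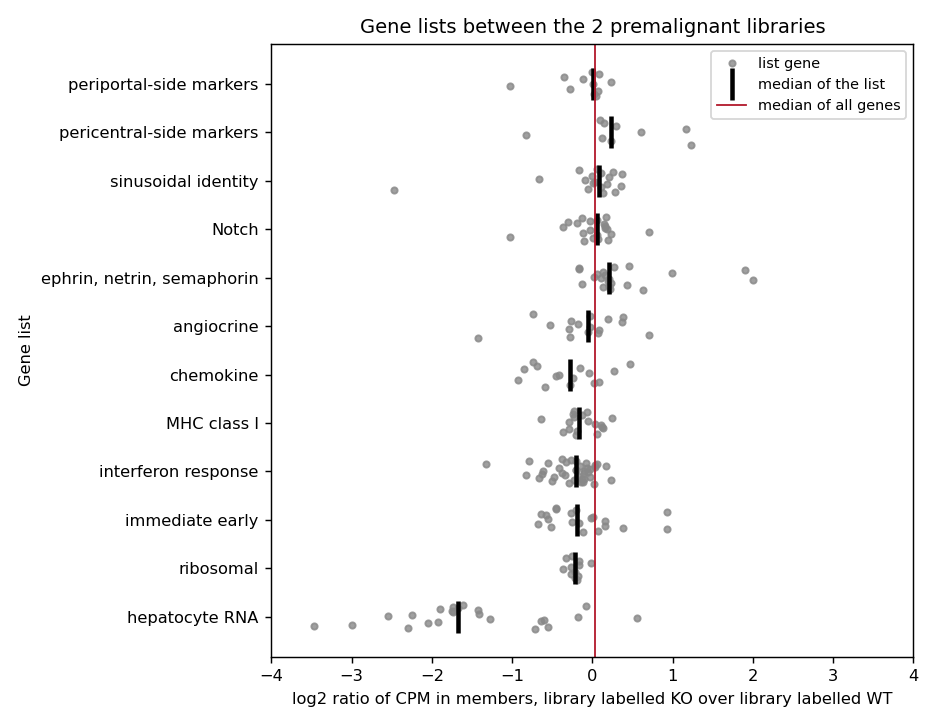
The log2 ratio of CPM in members, library labelled KO over library labelled WT (horizontal axis), for the genes of 12 lists (grey points, at least 20 UMIs; Igfbp3, with no UMI in KO members, is not drawn), with each list's median (black bar) and the median of all genes (red line, 0.031). The periportal-side markers sit at the line with a median of 0.007, the interferon, chemokine and immediate early lists lie to its left, and the hepatocyte genes have a median of -1.68 (-0.38 after thinning).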

How the data were processed

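Polyadenylated RNA of dissociated mouse liver was measured cell by cell in 4 libraries, and the 2 premalignant ones were used. The values in the deposited matrices are whole UMI counts for each barcode and gene. Software version 3.0.1 is given per the file headers, and the submitters' processing notes name Cell Ranger, bcl2fastq 2.20.0 and the builds GRCh38 and mm10, without a role for each. The counts are sparse whole numbers and were used as deposited.

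Members, gene lists and rules were chosen with earlier results of these data known. The premalignant libraries held 56458438 UMIs in 9672 barcodes (KO) and 96593761 UMIs in 14167 barcodes (WT). Members were summed to 2383483 UMIs (KO) and 8387013 UMIs (WT). CPM are UMIs scaled to such a sum. Zones were tested in 1 fit of 6 sums (3 zones in 2 libraries) with edgeR 4.0.16 in R 4.3.3 (TMM, filterByExpr, quasi-likelihood, library as block, Benjamini-Hochberg over all tested genes). The fit was first tested on simulated counts with known changes. These counts had the same fixed spread for every gene and equal zones apart from the changed genes. They do not cover unevenness from single barcodes or from the midzonal sums. DESeq2 1.42.0 was an alternative. The labels were compared by log2 ratios of CPM with exact conditional binomial intervals at 95%, without a test. With 1 library per label and no statement on the animals, intervals cover counting error only and p-values the spread between the 2 libraries. Doublets were scored with scrublet in scanpy 1.11.5.

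The genes named were, among called genes with at least 50 UMIs in members and the same sign in both libraries, the 12 highest and 12 lowest against the pericentral side and the 6 highest and 6 lowest against the midzonal side. For the labels, they were the 12 highest and 12 lowest by the interval bound nearest 0, leaving out genes under 0.5 of their level outside the gate in both libraries. Up to 4 genes per list with the largest values, and the members' defining markers, were added, and other list genes were named after their values were seen. Motifs were searched in the 250 bases before gene starts of the RefSeq promoter table. Gene positions come from the GENCODE annotation of GRCm38. One gene of the second KO against WT ranking is not reported here.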

Additional observations from a re-analysis of the deposited data

Results flagged for a closer look

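For 3 genes the label ratio in members pointed one way and that in pericentral-side barcodes the other, each past 1.5-fold with an interval that leaves out 0. The screen covered genes with at least 50 UMIs in members and in pericentral-side barcodes, under the limits of the label ranking. Before those limits, 9971 genes reached 50 UMIs in members and 9284 in pericentral-side barcodes. The intervals cover counting error only, so these 3 genes are listed for a closer look and not as a result. Fam198b had a log2 ratio, library labelled KO over library labelled WT, of -0.71 in members and 0.73 in pericentral-side barcodes. Rtn2 had -1.01 in members and 0.95 in pericentral-side barcodes. Tm9sf1 had 1.05 in members and -1.15 in pericentral-side barcodes. Counts were low, with 23, 10 and 20 UMIs in KO members and 132, 71 and 34 UMIs in WT members for Fam198b, Rtn2 and Tm9sf1. The difference between the zones was not tested, since each label has 1 library.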

How the results depend on the processing

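Against the pericentral side, the number of genes called moved with the processing while each fit kept most of the 242 genes. The counts of higher and lower genes were 440 and 411 after thinning to 2000 UMIs, 438 and 432 with at most 10% mitochondrial UMIs, 210 and 213 without any Clec4f UMI, 685 and 607 with a sinusoidal sum of at least 8, 735 and 720 with a sinusoidal sum of at least 0.2% of UMIs, 664 and 597 with only the 2 zones compared, 81 and 77 without the library block, and 75 higher without members with Adgrg6. The 14 other fits called at least 148 of the 242 genes again. Against the midzonal side, the higher and lower genes were 220 and 196 after thinning, 14 and 11 without doublets, 236 and 269 with at most 10% mitochondrial UMIs, 27 and 33 with a higher UMI minimum per barcode, 125 and 219 with at least 2 Ntn4 and Efnb2 UMIs, 334 and 290 with a sum of at least 8, 332 and 321 with a sum of at least 0.2%, 137 and 307 with DESeq2, 123 and 150 without the filter on low counts, and 18 and 25 with only the 2 zones compared. They were 37 higher without members with Adgrg6 and 40 higher without the library block. The cause of these changes was not tested. The share of higher calls was 49.6% of the midzonal calls in the main fit, 30.9% with DESeq2, 27.6% without members with Adgrg6, 31.2% without the library block, 36.3% with at least 2 Ntn4 and Efnb2 UMIs and 61.7% without any Clec4f UMI. With a sum of at least 8, Apoa1, Ahsg and Pzp reversed to 0.040, 0.37 and 0.41 against the midzonal side.

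The share of members had a log2 ratio of -0.27 between the libraries labelled KO and WT, and of -0.80 with all passing barcodes as the denominator. Genes at least 1.5-fold higher under the label KO numbered 422, and 222 without the top barcode of each gene. With at least 100 UMIs they were 196 higher and 270 lower. Shifted lists, counted without the arterial and portal vein list and the ribosomal list, numbered 5. They numbered 3 with barcodes weighted equally, with more UMIs required, with at least 2 Ntn4 and Efnb2 UMIs or without Clec4f. Relative to all genes, the MHC class II list (0.35) reversed to -0.32 after thinning and -0.053 without doublets, and the erythroid list to 0.31 after thinning. The interferon list lay between -0.24 and -0.17, the chemokine list between -0.45 and -0.022, and the immediate early list between -0.61 and -0.15. Mup3 reversed to 0.078 after thinning, and Serpina3k to 0.44 after thinning, 0.38 with at most 10% mitochondrial UMIs and 0.43 with a sum of at least 0.2%. The 24 genes of the second ranking kept their direction in all 13 alternatives. The settings with a sum of at least 0.2% and without members with Adgrg6, the second ranking, and the sums without the 4 barcodes of other cell types or without Fcer1g, were chosen after seeing the data. No paired analysis was possible because each label has 1 library per stage. The eHCC libraries held too few gated barcodes for the zone test, which was not run in them.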
